A study of Homo sapiens with 6 samples.

Results

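Splicing factors and heterogeneous nuclear ribonucleoproteins (hnRNPs) were followed in DU145 prostate cancer cells with and without overexpression of TFEB. The members were chosen by gene symbol, as the protein-coding genes whose names begin with SRSF, HNRNP, SF3A or SF3B, PRPF, SNRP, U2AF or LUC7L. Of 80 protein-coding genes of GENCODE 29 with such names, 53 are among the 10542 genes of the deposited table, and the other 27, among them HNRNPC, HNRNPD, SRSF2, U2AF1 and PRPF8, were not analysed here. DU145 is an established human prostate cancer line, and its cells received either a lentivirus carrying TFEB (DU145-TFEB, 3 libraries) or the same kind of virus with an empty vector (DU145-vector, 3 libraries). Polyadenylated RNA of both was sequenced. The labels name the replicates 1 to 3 but do not say that they came from separate cultures, nor whether the transduced cells were a pool or 1 clone. The p-values below therefore measure the spread between these libraries, which may be technical.

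Splicing removes introns in a series of small nuclear ribonucleoprotein particles (snRNPs). The U1 particle marks the start of the intron, the U2 particle with its SF3A and SF3B subunits marks the branch point, and U2AF binds the pyrimidine tract beside the intron's end. SR proteins (SRSF genes) bind exons and mostly favour their inclusion, while hnRNPs package the nascent transcript and often act against the use of nearby splice sites. PRPF proteins assemble and remodel the catalytic particle, and Sm proteins form the ring at the core of the snRNPs. TFEB itself is a transcription factor of lysosomal and autophagy genes that binds the CACGTG motif (E-box). The experiment was made to see what raised TFEB does to these cells' transcripts.

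The deposited values are normalized read counts, and reads on listed genes, recovered from them, numbered between 13999961 and 16511477 per library. TFEB reached 6325, 6301 and 6036 normalized counts in the 3 DU145-TFEB libraries against 127, 124 and 125 in the DU145-vector libraries, a log2 fold change of 5.62 (SE 0.075), as the labels have it. The epithelial keratins KRT8 and KRT18 and the mesenchymal filament gene VIM were present in every library, and CDH1 and EPCAM were not analysed here. These markers were themselves lower in DU145-TFEB without overlap, KRT8 at 14615 to 20808 against 24614 to 28109 normalized counts, KRT18 at 5517 to 7913 against 9961 to 11366 and VIM at 5098 to 5895 against 8950.3 to 9470. Their part in the members' changes was not tested. The table lists only genes with an adjusted p-value below 0.05 in the authors' own comparison of the same libraries. A member's significance is thus partly fixed by its being listed, so sizes and directions carry the description here. RNA was taken from whole cultures, in which fewer cells of a kind and less RNA per cell cannot be told apart.

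Of the 53 members, 36 were lower and 17 higher in DU145-TFEB, all with a limma adjusted p below 0.05 (between 2.3e-06 and 0.0287). Among all listed genes 52.4% were lower and 47.6% higher by the same test. The median log2 fold change of the members was -0.58 (range -1.87 to 0.61) against -0.36 over all listed genes. Past an absolute log2 fold change of 1.5, the study's cutoff, 8 members were lower and 0 higher, where 16.5% and 2.54% of the listed genes were. These 8 of 53 are a share of 15.1%, near that of all listed genes. A log2 fold change below -1 was seen in 19 members, and 31.1% of listed genes were below it. Above 1 there were 0 members and 8.41% of listed genes. The members' normalized counts did not overlap between the groups in 52 of 53 cases, beside 99.3% of all listed genes. The exception was HNRNPM.

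**Figure D1:**
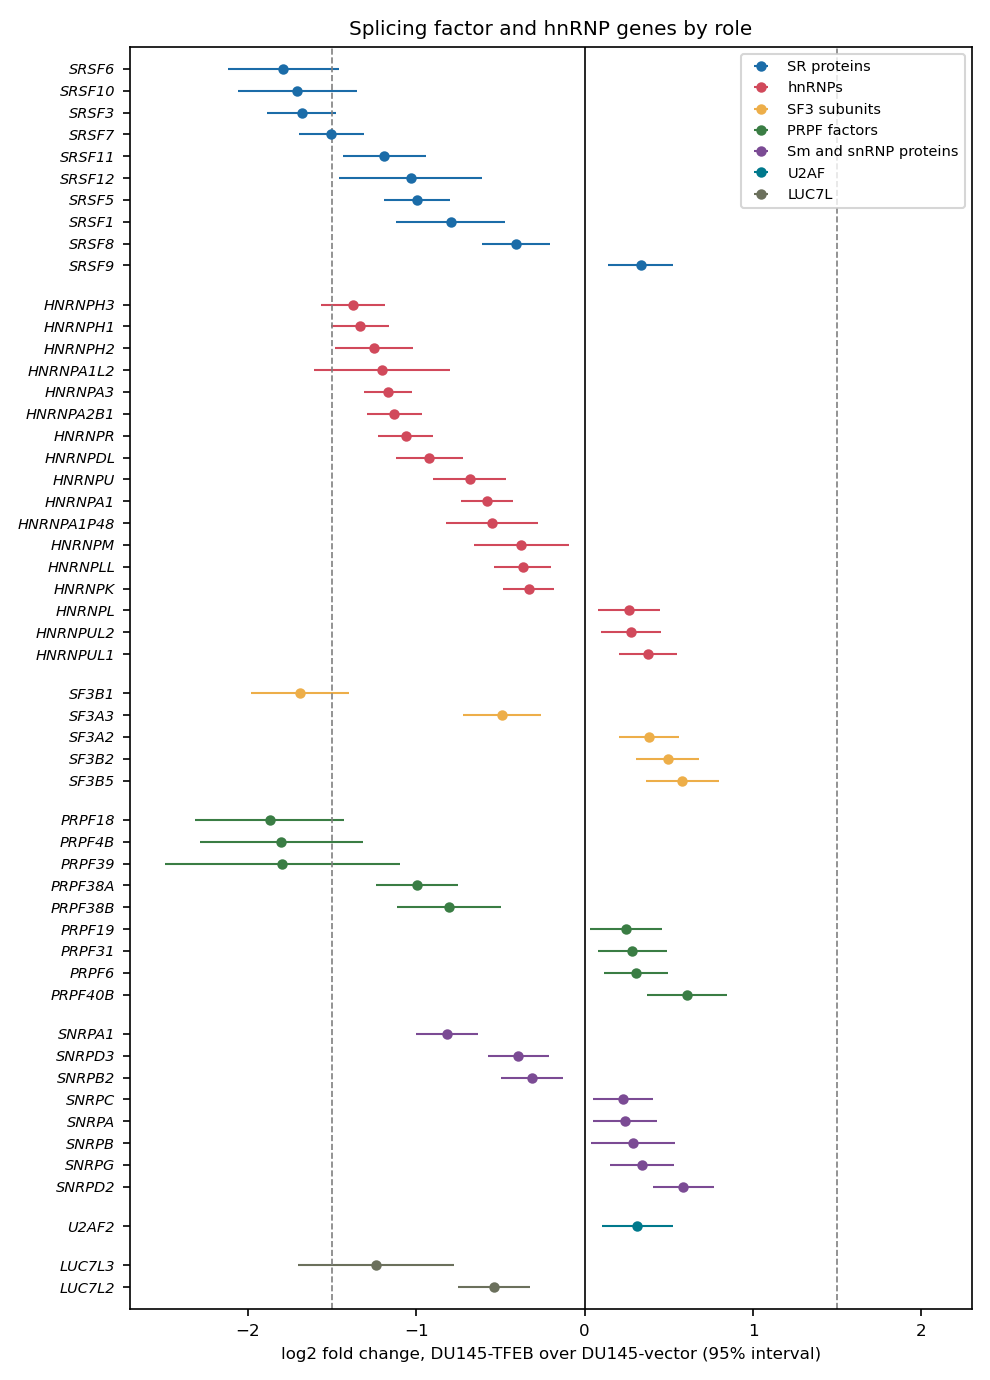
Log2 fold change (DU145-TFEB over DU145-vector, 3 libraries each, limma) of 52 of the 53 members on the x axis, grouped by role, with bars for the 95% interval and dashed lines at 1.5 on either side. The SR proteins lie to the left apart from SRSF9, the 8 members beyond the lower line are SRSF6, SRSF10, SRSF3, SRSF7, SF3B1, PRPF18, PRPF4B and PRPF39, and no member reaches 1.

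Directions differed between roles on the deposited scale, and so did base composition, which is taken up below. SR proteins were lower in 9 of 10 cases with a median of -1.11, hnRNPs in 14 of 17 with a median of -0.68, PRPF factors in 6 of 10 with a median of -0.90 and LUC7L genes in 2 of 2. Of the SF3 subunits 2 of 5 were lower, of the Sm and snRNP proteins 3 of 8, with medians of 0.38 and 0.24, and U2AF2 was higher. By abundance, the members together held 0.988%, 1.05% and 0.986% of the listed genes' normalized counts in DU145-TFEB against 1.42%, 1.47% and 1.37% in DU145-vector. Most of this difference in share lay in the hnRNPs, which took 0.547% ± 0.016 (SD, n = 3) against 0.837% ± 0.032, and in the SR proteins with 0.086% ± 0.003 against 0.196% ± 0.022. The 2 ranges were apart in both families. The share of the SF3 subunits was 0.117% ± 0.004 against 0.123% ± 0.004 with overlapping libraries, and that of the Sm and snRNP proteins 0.138% ± 0.011 against 0.124% ± 0.002.

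**Figure D2:**
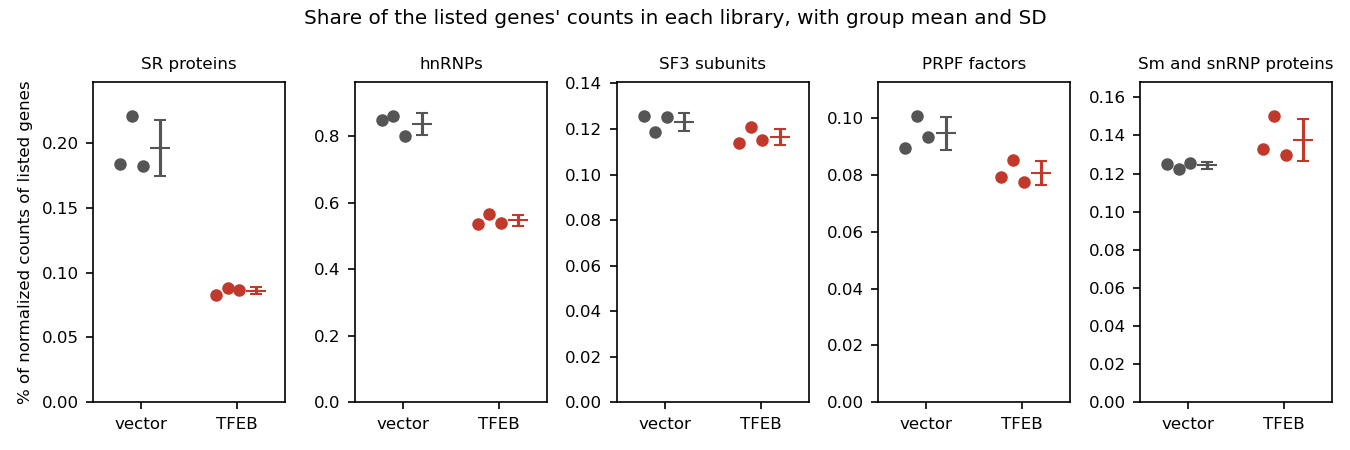
Share of the listed genes' normalized counts (%, y axis from 0) taken by the members of 5 roles in each DU145-vector (grey) and DU145-TFEB (red) library, with the mean and SD of 3 libraries beside the points. The SR protein and hnRNP points of DU145-TFEB lie well below those of DU145-vector, the SF3 points overlap, and the Sm and snRNP points are slightly higher in DU145-TFEB.

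Base composition moved with these directions and is given here because it bears on the values above and on every value that follows. The GC content of the longest transcript had a median of 56.6% in the 17 higher members and 40.2% in the 36 lower ones. Their median gene length, as given by the authors, was 3.04 kb and 5.42 kb. All listed genes were split the same way. Ranked by GC content and cut into 5 bins of equal size, 97.2% of listed genes in the lowest bin (26.5 to 40.2%) were lower in DU145-TFEB, their median log2 fold change being -1.38. In the highest bin (58.5 to 74.2%) 2.42% were lower, the median being 0.66. Members followed these shares, with 18 lower and 1 higher in the lowest bin and 0 lower and 4 higher in the highest. The 10 SR genes, at 36.6 to 43.9%, lay in the lowest bin and the next (40.2 to 44.4%). In that next bin 90.7% of listed genes were lower, with a median of -1.10. The SR genes' median of -1.11 was taken over both bins, whose listed genes had medians of -1.38 and -1.10. Across genes, which are not independent replicates and were measured in the same libraries, Spearman's rho between fold change and GC was 0.71 over the 53 members and 0.74 over the listed genes. In each library, the median deviation of the highest bin minus that of the lowest was between 0.69 and 1.31 (log2) in DU145-TFEB and between -1.26 and -0.86 in DU145-vector. The groups do not overlap in it, so a GC-dependent difference between libraries and an effect of TFEB cannot be told apart. A second value is therefore given for the members described, the log2 fold change after each library's trend over GC content and length was removed (trend-removed). With it 27 members were lower and 8 higher by limma's adjusted p, and 0 passed the cutoff (4.26% of listed genes did in the lower direction). The sign was opposite in 18 of the 53 members, beside 3546 of the 10537 listed genes with GC content, a similar share. The median was -0.22 against -0.30 over all listed genes. By role the trend-removed medians were -0.24 for SR proteins, -0.16 for hnRNPs, -0.62 for SF3 subunits, -0.57 for PRPF factors and -0.13 for Sm and snRNP proteins. They lay below 0 in these 5 roles, while that of the LUC7L genes was 0.07. By this measure 53.7% of listed genes were lower and 15.6% higher. Where GC was instead averaged over a gene's annotated transcripts, a choice made after seeing the data, the members' median was -0.41, against -0.29 over all listed genes. The medians of the SR proteins, hnRNPs, SF3 subunits, PRPF factors and Sm and snRNP proteins were then -0.54, -0.15, -0.12, -0.49 and -0.23. That of the LUC7L genes was then -0.28, also below 0. The order of the roles thus depended on how GC was taken.

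**Figure D3:**
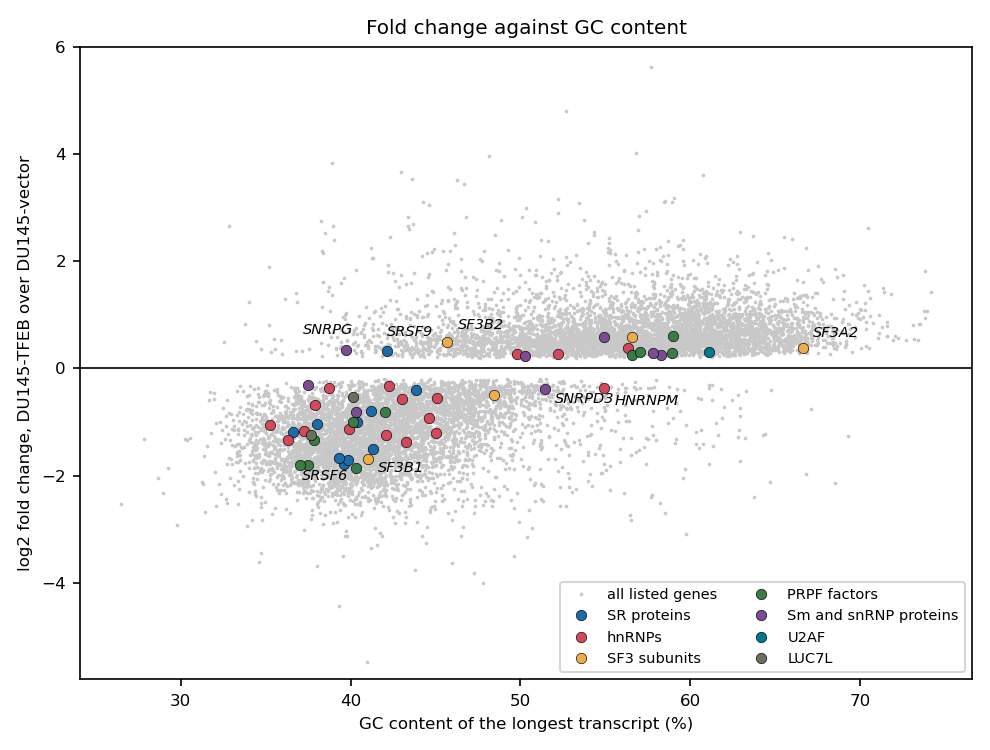
Log2 fold change (y axis, DU145-TFEB over DU145-vector) against GC content of the longest transcript (x axis, %) for all listed genes (grey) and the 53 members coloured by role. Low-GC genes lie mostly below 0 and high-GC genes mostly above, members SNRPG, SRSF9 and SF3B2 lie above 0 on the low side, and SNRPD3 and HNRNPM lie below 0 among higher-GC genes.

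The promoters of 5 members are shown because TFEB's motif is present in the first 3 and absent from the last 2, which were the lowest and the highest of the SR proteins. The windows run from 250 bases before to 50 after the annotated start, 5′ to 3′ on the gene's strand, from RefSeq (GRCh38.p14), and capitals mark CACGTG.
SF3B1: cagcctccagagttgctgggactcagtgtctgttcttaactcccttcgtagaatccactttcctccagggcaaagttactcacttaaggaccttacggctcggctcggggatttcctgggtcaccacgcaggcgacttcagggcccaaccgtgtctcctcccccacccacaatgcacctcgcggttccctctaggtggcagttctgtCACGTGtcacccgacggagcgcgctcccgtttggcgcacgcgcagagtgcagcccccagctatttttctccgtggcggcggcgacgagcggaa
HNRNPA3: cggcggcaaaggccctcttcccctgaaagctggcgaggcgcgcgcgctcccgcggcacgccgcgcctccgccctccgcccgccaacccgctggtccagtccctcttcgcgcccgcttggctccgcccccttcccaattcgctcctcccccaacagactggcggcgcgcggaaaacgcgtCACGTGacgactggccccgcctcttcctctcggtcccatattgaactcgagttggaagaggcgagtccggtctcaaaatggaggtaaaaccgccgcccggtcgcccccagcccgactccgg
HNRNPH2: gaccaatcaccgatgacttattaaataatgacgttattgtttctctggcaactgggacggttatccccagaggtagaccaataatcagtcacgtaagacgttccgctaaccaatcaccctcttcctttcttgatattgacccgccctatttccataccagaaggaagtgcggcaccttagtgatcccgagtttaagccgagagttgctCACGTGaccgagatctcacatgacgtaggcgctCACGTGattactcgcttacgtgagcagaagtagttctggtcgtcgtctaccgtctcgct
SRSF6: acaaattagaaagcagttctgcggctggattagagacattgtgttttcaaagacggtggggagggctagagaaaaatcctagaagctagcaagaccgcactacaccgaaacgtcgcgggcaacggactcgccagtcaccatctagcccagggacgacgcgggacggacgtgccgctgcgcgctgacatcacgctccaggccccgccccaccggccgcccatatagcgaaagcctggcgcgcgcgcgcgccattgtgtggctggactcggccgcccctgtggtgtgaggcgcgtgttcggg
SRSF9: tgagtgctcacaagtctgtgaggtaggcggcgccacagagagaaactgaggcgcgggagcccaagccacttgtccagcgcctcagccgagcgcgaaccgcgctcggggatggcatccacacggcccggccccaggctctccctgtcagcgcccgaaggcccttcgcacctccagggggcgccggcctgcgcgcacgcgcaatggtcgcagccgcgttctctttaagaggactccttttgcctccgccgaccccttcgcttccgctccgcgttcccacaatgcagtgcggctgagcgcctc

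These lie at chr2:197435044-197435343 (minus strand), chr2:177212544-177212843 (plus), chrX:101407972-101408271 (plus), chr20:43457646-43457945 (plus) and chr12:120469699-120469998 (minus). CACGTG, a palindrome and so the same on both strands, begins 43 bases before the start in SF3B1, 71 before in HNRNPA3, and 42 and 9 before in HNRNPH2. SF3B1 has another annotated start, from which its motif lies 108 bases away. Of the 48 members with a promoter entry 7 hold it (14.6%), namely HNRNPA3, HNRNPDL, HNRNPH2, HNRNPH3, HNRNPM, HNRNPUL1 and SF3B1. It is found in 8.77% of all 27305 genes with such a window and 12.6% of the 7621 listed ones. The 7 comprise 6 of 31 lower members and 1 of 17 higher ones, HNRNPUL1. The longer TCACGTGA, which contains CACGTG, was found in HNRNPA3 and HNRNPH2 and in 1.18% of all genes with such a window and 2.40% of the listed ones. Such matches are descriptions of the letters and not bound sites.

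Of the 8 members past the lower cutoff 4 were SR proteins and 3 PRPF factors, while below -1 there were 6 SR proteins and 7 hnRNPs. SRSF6 (ENSG00000124193, chr20:43457928-43464247), an exon-binding regulator whose promoter above holds no E-box, had 832, 983 and 962 normalized counts in DU145-TFEB and 2770.0, 4124 and 2844 in DU145-vector. Every DU145-TFEB library was below every DU145-vector library, and the means of 926 ± 81.4 and 3246 ± 761 (SD, n = 3) differ 3.51-fold. Its log2 fold change was -1.79 (SE 0.146, limma adjusted p = 6.52e-06) and -1.02 trend-removed. SRSF3 (ENSG00000112081, chr6:36594353-36605600), a short SR protein that also serves RNA export and 3′ end processing, was the most abundant of the family per kilobase in DU145-vector. It had 2506, 2880 and 2513 normalized counts against 8332, 9323 and 7680.0, so the groups were far apart. This is a 3.21-fold decrease, or -1.68 on the log2 scale (SE 0.0902, limma adjusted p = 2.3e-06), and -0.74 trend-removed.

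SRSF10 (ENSG00000188529, chr1:23964804-23980927), an SR protein that represses splicing when dephosphorylated, had 664, 554 and 769 normalized counts in DU145-TFEB and 1918, 2699 and 1907 in DU145-vector. The groups did not overlap, and the 3.28-fold decrease (log2 -1.71, SE 0.157, limma adjusted p = 1.09e-05) became -0.72 with the trend removed. SRSF7 (ENSG00000115875), which carries a zinc knuckle beside its RNA-binding domain, had 1011, 1222 and 1085 against 3088, 3255 and 3042. It lay just past the cutoff at -1.503 (SE 0.0848) and ranged between -1.58 and -1.44 when single libraries were left out, with -0.91 trend-removed, while HNRNPH3 lay just short of the cutoff at -1.38. SRSF11, SRSF12, SRSF5, SRSF1 and SRSF8 followed with -1.19, -1.03, -0.995, -0.79 and -0.41. With the trend removed they had -0.04, -0.15, -0.23, -0.25 and -0.07, of which SRSF5 alone kept a limma adjusted p below 0.05. With averaged GC they had -0.41, -0.26, -0.49, -0.78 and 0.25, so these values too depended on how GC was taken.

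SRSF9 alone among the 10 analysed SR genes was higher in DU145-TFEB. SRSF9 (ENSG00000111786, chr12:120461668-120469793), a close relative of SRSF1, had 2777, 3150.2 and 2625 normalized counts in DU145-TFEB and 2221, 2153 and 2404 in DU145-vector. All 3 DU145-TFEB libraries were above all DU145-vector libraries, with a log2 fold change of 0.33 (SE 0.0857, 95% interval 0.14 to 0.53, limma adjusted p = 0.00425). Its longest transcript's GC content of 42.1% lies within the family's range (36.6 to 43.9%), that averaged over its transcripts is 49.0%, and its trend-removed value was 0.83, or 0.27 with GC averaged over its transcripts. Each of the 10 SR genes has at least 1 transcript annotated for nonsense-mediated decay in GENCODE 29, the class to which transcripts with a so-called poison exon belong, beside 33 of all 53 members and 43.7% of listed protein-coding genes. The deposited counts sum the transcripts of a gene, so productive and decay-prone forms cannot be told apart.

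**Figure D4:**
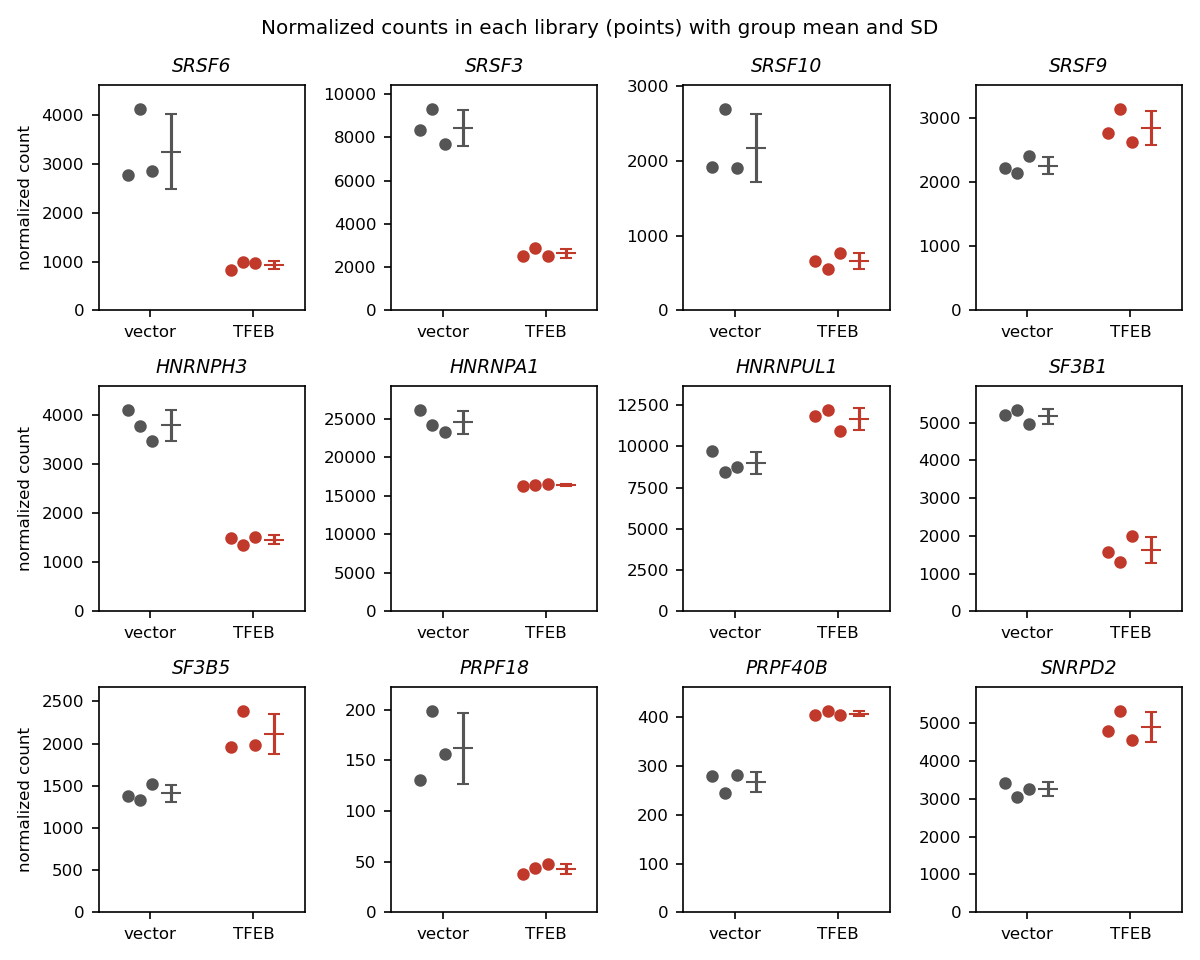
Normalized counts (y axes from 0) of 12 members in each DU145-vector (grey) and DU145-TFEB (red) library, with the mean and SD of 3 libraries beside the points. The groups are apart in all 12, with SRSF9, HNRNPUL1, SF3B5, PRPF40B and SNRPD2 higher in DU145-TFEB and the other 7 lower.

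Of the 17 hnRNPs, 14 were lower, 7 of them below -1, and none passed the cutoff. The H family, which binds runs of G, stood at the low end. HNRNPH3 (ENSG00000096746, chr10:68331174-68343191) had 1504, 1356 and 1524 normalized counts in DU145-TFEB against 4118, 3784 and 3485 in DU145-vector. The groups were well apart at 1461 ± 91.9 and 3796 ± 317 (SD, n = 3), a log2 fold change of -1.38 (SE 0.0845, limma adjusted p = 2.74e-06) and -0.87 trend-removed. HNRNPH1 had -1.33 and HNRNPH2, whose promoter holds the motif at 2 positions, -1.25. Their trend-removed values were -0.14 and -0.96, and HNRNPH1's was -0.94 with GC averaged over its transcripts.

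HNRNPA1 (ENSG00000135486, chr12:54280193-54287088), a general splicing silencer, was the most abundant member per kilobase in both groups, at 3225 normalized counts per kb in DU145-TFEB and 4823 in DU145-vector. Its normalized counts were 16277, 16422 and 16577 in DU145-TFEB and 26200.5, 24247 and 23242 in DU145-vector, with no overlap. The log2 fold change was -0.58 (SE 0.0674, limma adjusted p = 3.9e-05), and the trend-removed value was -0.07. HNRNPA1L2 and HNRNPA1P48 are near copies of HNRNPA1, so their values of -1.20 and -0.55 are uncertain, as are the trend-removed -0.98 and -0.56, since reads may have been split between them. The A/B proteins HNRNPA3 and HNRNPA2B1, which bind related motifs, had -1.17 and -1.13. With the trend removed they had -0.15 and -0.16.

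HNRNPR, HNRNPDL, HNRNPU, HNRNPLL and HNRNPK, the last a binder of C-rich RNA, had -1.06, -0.92, -0.68, -0.37 and -0.33. All but HNRNPDL, at -0.56, turned above 0 with the trend removed, to 0.16, 0.50, 0.55 and 0.26, and HNRNPR returned to -0.15 with averaged GC. HNRNPUL1 (ENSG00000105323, chr19:41262496-41307598), a relative of the nuclear scaffold protein HNRNPU, was the most raised hnRNP. It had 11833, 12219 and 10943 normalized counts in DU145-TFEB and 9731, 8458 and 8760.0 in DU145-vector, again without overlap. The log2 fold change was 0.38 (SE 0.0765, limma adjusted p = 0.00112) and -0.37 trend-removed. HNRNPUL2 and HNRNPL, a binder of CA-rich RNA, had 0.28 and 0.26, and -0.21 and 0.10 trend-removed. With averaged GC they had 0.48 and 0.11.

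HNRNPM, a binder of GU-rich RNA, was lower at a GC content of 54.9%, in a bin (51.4 to 58.5%) where 9.97% of listed genes were lower. Its normalized counts were 4667, 6079 and 4165 in DU145-TFEB and 6415, 6731 and 5964 in DU145-vector. Replicate 2 of DU145-TFEB lay above replicate 3 of DU145-vector, so the groups overlapped. The log2 fold change of -0.37 (SE 0.125, limma adjusted p = 0.0152) had the highest adjusted p of the lower members and lost its call without replicate 1 of DU145-TFEB or replicate 2 of DU145-vector. DESeq2 on the recovered reads gave -0.11 with an adjusted p of 0.404. Its trend-removed value was -1.06, or -0.77 with averaged GC.

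Subunits of the SF3 complexes, which hold U2 at the branch point, moved in opposite directions. SF3B1 (ENSG00000115524, chr2:197389784-197435091), the large scaffold that clasps the branch point helix and is recurrently mutated in leukaemias, had 1579, 1312 and 1986 normalized counts in DU145-TFEB and 5214, 5346 and 4962 in DU145-vector. Each DU145-TFEB library was below all of DU145-vector, a 3.18-fold decrease with a log2 fold change of -1.69 (SE 0.13, limma adjusted p = 5.43e-06). The trend-removed value was -0.81. The small subunit SF3B5 (ENSG00000169976, chr6:144094881-144095573) had 1962, 2390.4 and 1989 against 1377, 1331 and 1522. It was higher in every DU145-TFEB library, by 0.58 on the log2 scale (SE 0.0961, limma adjusted p = 0.000336), and its trend-removed value was -0.07.

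SF3B2, which touches the RNA upstream of the branch point, had 9524, 10086 and 9339.9 normalized counts against 7382, 6096 and 7155, also without overlap. Its log2 fold change was 0.49 (SE 0.0832, limma adjusted p = 0.000378). The trend-removed value depended on how GC was taken, at 0.94 with the longest transcript and 0.09 with the mean over transcripts. Within the complex the log2 ratio of SF3B2 to SF3B1 was 2.59 ± 0.35 (SD, n = 3) with TFEB and 0.41 ± 0.19 with the vector. The difference of 2.18 was 1.76 with the trend removed and 0.64 with averaged GC. SF3A2 and SF3A3, both of the SF3A complex, had 0.38 and -0.49, and -0.76 and -0.62 trend-removed, so that they shared a sign there. With averaged GC they had -0.69 and -0.12, the latter without a call (limma adjusted p = 0.252).

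PRPF factors held both the most lowered and the most raised member of all. PRPF18 (ENSG00000165630, chr10:13586927-13630868), a factor of the second catalytic step, was scarce, with 37.9, 43.7 and 47.8 normalized counts in DU145-TFEB against 130.4, 199 and 156 in DU145-vector. The groups were apart, and the lowest library still held 36 reads. Its log2 fold change of -1.87 (SE 0.197, limma adjusted p = 2.19e-05) remained at -1.44 with the trend removed, the lowest trend-removed value of the 53. PRPF4B (ENSG00000112739), a kinase that acts on the tri-snRNP, had 427, 286 and 532 against 1201, 1745 and 1314, or -1.80 (SE 0.216, limma adjusted p = 4.64e-05) and -0.71 trend-removed. PRPF39, a U1-associated factor, had 137, 60.1 and 142 against 315, 472 and 336. Replicate 2 of DU145-TFEB stood low there, and the log2 fold change of -1.79 (SE 0.31, limma adjusted p = 0.00043) ranged between -2.01 and -1.39 when single libraries were left out. Its trend-removed value was -0.83.

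PRPF40B (ENSG00000110844, chr12:49568218-49644666), a U1-associated factor, had 405, 413 and 404 normalized counts in DU145-TFEB and 278, 244 and 281 in DU145-vector. It was higher in all DU145-TFEB libraries, by 0.61 (SE 0.105, limma adjusted p = 0.000448), with -0.01 trend-removed. PRPF38A and PRPF38B, partners in spliceosome activation, had -0.99 and -0.81. Both lost their call with the trend removed, at -0.19 and -0.15 (limma adjusted p = 0.111 and 0.221). PRPF19 (ENSG00000110107), the ubiquitin ligase at the centre of the complex named after it and the most abundant PRPF gene per kilobase, had 5019, 6044 and 4652 against 4455, 4458 and 4257. This small rise of 0.25 (SE 0.095, limma adjusted p = 0.0286) lost its call without any single library other than replicate 3 of DU145-TFEB. The trend-removed value of PRPF19 was -0.59, or -0.43 with averaged GC. PRPF6 and PRPF31, both of the tri-snRNP, had 0.30 and 0.28, and -0.55 and -0.66 trend-removed.

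Of the 4 core Sm proteins analysed 3 were higher on the deposited scale, and 1 was above 0 with the trend removed. SNRPD2 (ENSG00000125743, chr19:45687454-45692569), 1 of the ring's subunits, had 4773, 5318 and 4545 normalized counts in DU145-TFEB and 3417, 3047 and 3266 in DU145-vector. The groups were apart, and the difference was 0.59 on the log2 scale (SE 0.0801, limma adjusted p = 0.000101) and -0.09 trend-removed. SNRPB (ENSG00000125835), the most abundant of this group per kilobase, had 3680, 4712 and 3413 against 3126, 3145 and 3310.0. Its log2 fold change was 0.29 (SE 0.111, limma adjusted p = 0.0287), and it no longer passed without replicate 2 of DU145-TFEB, replicate 1 of DU145-vector or replicate 2 of DU145-vector. Its trend-removed value was -0.40. SNRPG, another ring subunit, was higher by 0.34 at a GC content of 39.7%, and had 0.84 trend-removed. SNRPD3 went the other way with -0.39 and -0.90 trend-removed, so that the subunits of this ring differed in direction on both scales. DESeq2 on the recovered reads gave SNRPD3 -0.15 with an adjusted p of 0.157.

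Among proteins particular to 1 particle, SNRPA1 of U2 (ENSG00000131876, chr15:101281510-101295282) was the most lowered, with 722, 803 and 790.2 normalized counts against 1396, 1385 and 1296. The groups did not overlap, and the log2 fold change was -0.82 (SE 0.0807, limma adjusted p = 1.56e-05) and -0.17 trend-removed. SNRPB2, its partner in U2, had -0.31, while SNRPA and SNRPC of U1 had 0.24 and 0.23. With the trend removed SNRPB2 and SNRPA changed places, at 0.45 and -0.69, and SNRPC had 0.06.

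U2AF2 (ENSG00000063244, chr19:55654146-55674715), the large subunit that reads the pyrimidine tract, had 4832, 5511 and 4276 normalized counts in DU145-TFEB and 4011, 3747 and 3943 in DU145-vector. Every DU145-TFEB library was above every DU145-vector library, and the log2 fold change was 0.31 (SE 0.0929, limma adjusted p = 0.00854). With its GC content of 61.1%, the trend-removed value was -0.68. Both LUC7L genes, whose products join U1 and shape the choice of its splice sites, were lower. LUC7L3 (ENSG00000108848, chr17:50719544-50756213) had 848, 626 and 994 against 1489, 2528 and 1849, or -1.24 (SE 0.205, limma adjusted p = 0.000336). LUC7L2 (ENSG00000146963, chr7:139340359-139423457) had 496, 511 and 513 against 701, 818 and 694, or -0.54 (SE 0.0955, limma adjusted p = 0.000515). Neither overlapped between groups, and the trend-removed values were -0.15 and 0.30, or -0.43 and -0.13 with averaged GC.

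**Figure D5:**
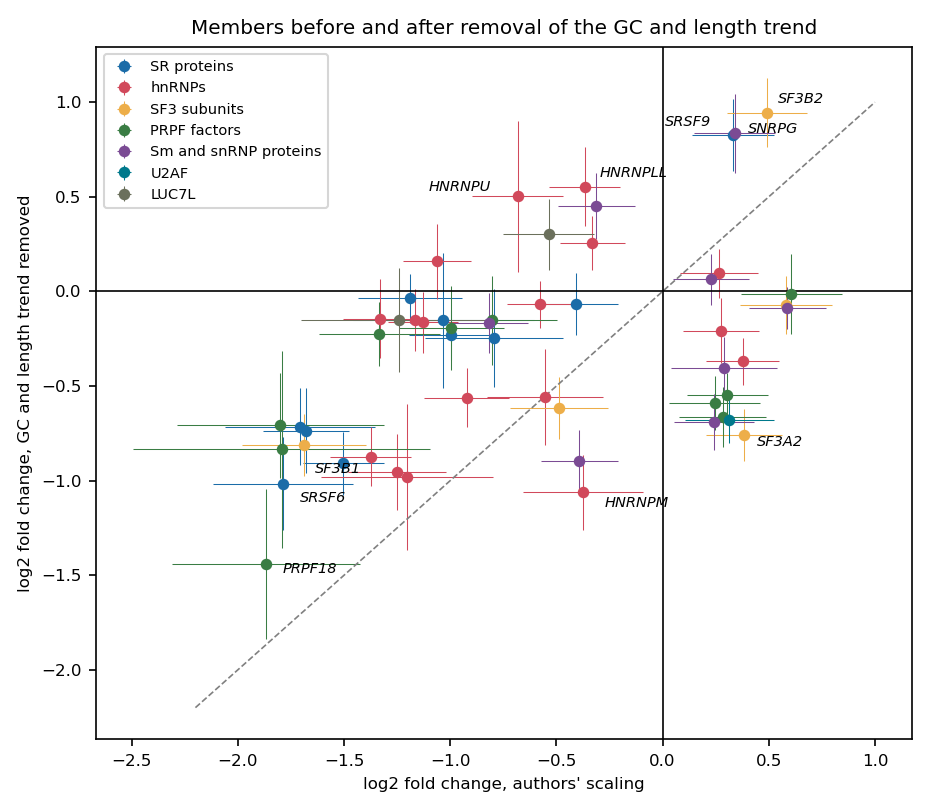
Log2 fold change of the 53 members with each library's GC and length trend removed (y axis) against that of the deposited scaling (x axis), with bars for the 95% intervals of both and a dashed line where they are equal. SRSF6, SF3B1 and PRPF18 stay below 0 on both axes, SRSF9, SNRPG and SF3B2 stay above 0 on both, and SF3A2 and HNRNPU lie in quadrants of opposite sign.

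Ratios between relatives were taken in 9 pairs that were chosen after their values had been seen and are given without a test. SRSF9 over SRSF1 had a log2 ratio of 2.00 ± 0.09 (SD, n = 3) with TFEB and 0.88 ± 0.34 with the vector, a difference of 1.13 that was 1.07 with the trend removed and 1.05 with averaged GC. These transcripts have nearly the same GC content, 42.1% and 41.2%. By contrast HNRNPUL1 over HNRNPU differed by 1.06, SNRPA over SNRPB2 by 0.55 and HNRNPL over HNRNPLL by 0.63, and these became -0.87, -1.14 and -0.46 with the trend removed. SF3A2 over SF3A3 differed by 0.87 and LUC7L3 over LUC7L2 by -0.70, and by -0.14 and -0.45 with the trend removed. With averaged GC these 2 differences were -0.57 and -0.30. The remaining pairs overlapped between the groups. HNRNPH1 over HNRNPH2 differed by -0.08, or 0.81 with the trend removed and -0.09 with averaged GC, and PRPF38A over PRPF38B by -0.19, or -0.04 with the trend removed.

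Members on chromosome 19, a GC-rich chromosome, were mostly higher. They numbered 8, with 7 higher, HNRNPM lower and a median of 0.30 on the log2 scale. With the trend removed 6 of the 8 were lower and 0 higher by limma's adjusted p, and the median was -0.67. Of the 839 listed genes there, 649 were higher, and their median was 0.63. With the trend removed 408 of these 839 were lower and 119 higher by limma's adjusted p, with a median of -0.24.

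Splicing genes outside these families gave the wider setting. From a list of 124 such genes (other snRNP and LSm proteins, spliceosomal helicases, splicing kinases and tissue regulators), 92 were among the listed genes. Of these 58 were lower and 34 higher with limma's adjusted p, their median was -0.44, and 10 (10.9%) were past the cutoff in the lower direction and 0 in the higher. The 5 lowest were PTBP2, a neuronal relative of PTBP1 (-2.59), MBNL1, a muscleblind regulator (-2.25), the intron-binding helicase AQR (-2.15), the helicase DDX46 (-2.14) and SCAF11 (-2.04). Among the 5 highest were XAB2 (0.90), LSM7 (0.81), the SR protein kinase CLK2 (0.79) and LSM4 (0.65). With the trend removed the lowest 5 stood between -1.34 and -1.02, whereas XAB2, LSM7 and LSM4 fell below 0 at -0.09, -0.26 and -0.31.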

How the data were processed

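RNA-sequencing counts of 3 DU145-TFEB and 3 DU145-vector libraries were analysed, grouped by the sample labels. According to the paper and the submitters' processing notes, libraries were made with a NEBNext Ultra kit and the tools used included CASAVA 1.8, HISAT2 2.1.0 and edgeR, on GRCh38 (hg38), while the paper's methods name DESeq2. The counting program, its strand setting and the annotation are not given in the sources used here. Gene positions equal those of GENCODE 29 for 10541 of 10542 genes, from which transcripts and GC content were taken. Gene lengths are those the authors gave with the counts.

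The authors deposited a normalized signal, the read count of each gene divided by 1 size factor per library (0.950 to 1.10), for 10542 genes, each under an adjusted p-value of 0.05 in their own comparison. The authors' log2 fold changes, p-values and group means, deposited beside it, were not used except to check that selection. All values came out as whole reads (within 0.02) after rescaling. Since the values are normalized and not raw counts, log2(normalized count + 1) was tested with limma 3.58.1 (R 4.3.3, mean-variance trend, Benjamini-Hochberg over all listed genes), and DESeq2 1.42.0 and edgeR 4.0.16 on the recovered reads were alternatives. Fold changes on this scale understate those of low genes. No gene was below a mean normalized count of 1. Trend-removed values come from a loess fit (span 0.5) of each library's deviations on the longest transcript's GC content and the log2 of the deposited gene length. The fits were tested on simulated data. Members and lists were chosen with earlier results of these data known. Named with full values were, in each role, the most raised, most lowered and most abundant member per kilobase, up to 4 past the cutoff, and others by log2 fold change. HNRNPH1, HNRNPH2, HNRNPM, SF3B2, SNRPG and the ratios were singled out after their values were seen. Values of some listed genes are not reported here. Overlapping and antisense genes are uncertain.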

Additional observations from a re-analysis of the deposited data

How the results depend on the processing

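The 36 lower and 17 higher directions were kept under every other scaling, filter, pseudocount and tool and without any single library. Changes of direction arose only where the GC and length trend was removed. The scaling moved the median of all listed genes from -0.36 to -0.12 with DESeq2 size factors and -0.03 with quantile normalization, and that of the members from -0.58 to -0.34 with DESeq2 size factors and with DESeq2 on the reads, to -0.22 with the trend removed and to -0.41 with averaged GC (-0.62 to -0.57 without single libraries). The cause of these shifts was not tested. The 8 lower members past the cutoff became 4 with DESeq2 size factors, 4 with quantile normalization, 3 with DESeq2 on the reads, 0 with the trend removed, 1 with averaged GC and 19 at a cutoff of 1 (7 to 8 without single libraries). The number of members higher by adjusted p went from 17 to 8 under either trend removal (14 to 17 without single libraries). The number lower went from 36 to 29 with DESeq2 size factors and 31 with quantile normalization. It was 28 with DESeq2 on the reads, where SF3A3, SRSF8, SNRPD3, SNRPB2, HNRNPA1P48, HNRNPM, HNRNPLL and HNRNPK lost their call. The number lower was 27 with the trend removed and 33 with averaged GC (35 to 36 without single libraries). With the trend removed these were partly other genes. LUC7L2, SNRPB2, HNRNPU, HNRNPLL and HNRNPK went from called lower to called higher. PRPF19, PRPF31, PRPF6, SF3A2, SNRPA, SNRPB, U2AF2, HNRNPUL1 and HNRNPUL2 went from called higher to called lower. Of these reversals, those of LUC7L2 and HNRNPUL2 were not seen with averaged GC. LUC7L2 had -0.13 there (limma adjusted p = 0.172) and HNRNPUL2 0.48. The other splicing genes past the cutoff went from 10 to 0 under either trend removal and 32 at a cutoff of 1 (8 to 15 without single libraries).

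With the trend removed, 14 members kept their direction but lost their call, and these changed sign: LUC7L2 0.30, PRPF19 -0.59, PRPF31 -0.66, PRPF6 -0.55, PRPF40B -0.0148, SF3A2 -0.76, SF3B5 -0.0699, SNRPB2 0.45, SNRPA -0.69, SNRPB -0.40, SNRPD2 -0.0894, U2AF2 -0.68, HNRNPR 0.16, HNRNPU 0.50, HNRNPLL 0.55, HNRNPK 0.26, HNRNPUL2 -0.21 and HNRNPUL1 -0.37. With averaged GC, chosen after seeing the data, they were PRPF19 -0.43, PRPF31 -0.59, PRPF6 -0.52, SF3A2 -0.69, SF3B5 -0.0562, SRSF8 0.25, SNRPB2 0.51, SNRPC -0.0534, SNRPA -0.62, SNRPB -0.41, SNRPD2 -0.0567, U2AF2 -0.69, HNRNPU 0.46, HNRNPLL 0.53, HNRNPK 0.44 and HNRNPUL1 -0.15.

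Same-numbered libraries' deviations correlated at -0.06, -0.42 and -0.35, so no pairing by replicate number was seen. With 3 libraries a group such correlations cannot exclude a shared culture or batch. With the replicate number as a block 8 members were past the lower cutoff and 52 of 53 kept their call, SNRPA missing it at an adjusted p of 0.0508. HNRNPM, PRPF19, SNRPB, SNRPC and SNRPA lost theirs without some single library. Genes absent from the deposited list limit every count here, and 3 libraries a group give an exact permutation test no p below 0.1.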
